A study of Homo sapiens with 12 samples.

Results

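Integrins are the membrane receptors through which fibroblasts hold on to the extracellular matrix, and focal adhesions are the protein plaques that tie them to actin. The RNA of 33 genes of this machinery was followed in wild-type and ΔLEO1 fibroblasts. The 33 symbols were a fixed list, and each was matched to 1 Ensembl identifier among the 60671 genes of the count table. The list holds 11 integrin α subunits, 4 integrin β subunits, 3 talins and kindlins, 5 links to actin, 4 proteins of the complex of ILK, PINCH and parvin, 4 signalling kinases and scaffolds, and the LIM proteins ZYX and TES. All 33 passed the filter of more than 1 CPM (counts per 1000000 gene counts) in at least 3 libraries, as did 13236 genes in all.

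The cells were BJ-5ta, a human foreskin fibroblast line immortalized with telomerase. The ΔLEO1 cells had lost the DNA between exons 1 and 2 of LEO1 to CRISPR/Cas9. LEO1 is a subunit of the PAF1 complex, which travels with RNA polymerase II. The groups were WT_10 and Leo1_10, wild-type and ΔLEO1 cells in 10% serum, and WT_01 and Leo1_01, the same cells held for 10 days in 0.1% serum, which is used to make fibroblasts stop dividing. Each group had 3 poly(A) RNA libraries, with the running numbers 1 to 3 for WT_10, 4 to 6 for Leo1_10, 7 to 9 for WT_01 and 10 to 12 for Leo1_01. Every ΔLEO1 library came from 1 clone, so that the loss of LEO1 and other traits of that clone cannot be told apart. Whether the libraries of a group were separate cultures is not stated, and the p-values measure only the spread between these libraries, which may be technical.

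An integrin is a pair of 1 α and 1 β subunit. The α subunit largely decides which matrix protein is bound, and the short tail of the β subunit is gripped inside the cell by talin and kindlin, which switch the receptor on. Vinculin, α-actinin and tensin then couple the pair to actin filaments, while focal adhesion kinase, SRC and their scaffolds pass signals on.

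Depth ran from 26240632 to 45315560 gene counts per library. The synthetic ERCC transcripts added to every RNA sample took from 0.625% (0.623% to 0.628%) of all counts in library 4 to 3.24% (3.24% to 3.25%) in library 11 (95% Wilson intervals), and such intervals cover counting error only. An ERCC-scaled count below is a gene's count per 1000000 ERCC counts of its library, with the ERCC counts weighted by their own TMM factor. ERCC transcripts took 1.09% of the counts of library 12, against 1.88% and 3.24% in the other Leo1_01 libraries, 10 and 11. At equal CPM a gene's ERCC-scaled count is therefore higher in library 12 than in those libraries. In bulk RNA, fewer cells and less RNA per cell cannot be told apart, and the amount of RNA that went into each library is not given. The highest-numbered library of each group (3, 6, 9 and 12) stood apart, with a chi-square of 66.2 to 144 per gene against its partners, while the other pair of the group had 3.04 to 12.1. LEO1 itself had 682 to 1001 counts in wild-type and 23 to 55 counts in ΔLEO1 libraries, with a log2 fold change of −4.02 ± 0.58 (SE) in 10% serum and −4.32 ± 0.59 in 0.1% serum. The 11 fibroblast markers summed to 53326 to 76913 CPM in all 12 libraries. The 10 markers of epithelial, blood, endothelial and muscle cells summed to 1.53 to 2.55 CPM in wild-type and 7.73 to 12.5 CPM in ΔLEO1 libraries, where PTPRC reached 7.10 CPM and MYH11 8.82 CPM. EPCAM, CDH1, KRT5, KRT14, PECAM1, CDH5 and DES were at 0 in at least 1 library. In its highest library CDH1 reached 1.42 CPM (63 counts), and the rest of these at most 0.3315 CPM (DES). The difference in the summed markers moved with the genotype, and its part in the genotype comparisons was not tested.

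Levels of different genes were compared per length, as CPM per kilobase of exon (FPKM). A few genes dominated. In WT_10 cells ITGB1, the β subunit shared by most fibroblast integrins, had 368 ± 8.56 FPKM (SD, n = 3). It was followed by the actin crosslinker ACTN4 with 245 ± 74.6, by ZYX with 205 ± 21.4 and by TLN1 with 142 ± 19.4. ITGA10 (0.221 ± 0.0570), ITGB8 (0.269 ± 0.0989) and ITGA7 (0.275 ± 0.0546) stood at the bottom. ITGB1 had the highest mean FPKM in both wild-type groups, ACTN4 in Leo1_10 (324 ± 74.0) and ZYX in Leo1_01 (253 ± 19.9). The lead of ACTN4 over ITGB1 (293 ± 9.65) in Leo1_10 was smaller than the SD of ACTN4.

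Among the 11 α subunits, ITGA5, of the main fibronectin receptor, had the largest share of their summed FPKM in each library. It made up 35.9% ± 2.72 (SD, n = 3) in WT_10, 41.5% ± 2.11 in WT_01, 44.7% ± 3.88 in Leo1_10 and 50.5% ± 13.8 in Leo1_01. Of the collagen-binding subunits, ITGA1 and ITGA11 went separate ways in their shares between the genotypes in 10% serum. ITGA1 made up 3.10% to 3.87% in WT_10 and 6.52% to 11.4% in Leo1_10, and ITGA11 6.13% to 10.7% in WT_10 and 2.41% to 3.91% in Leo1_10. ITGA4, of a receptor for fibronectin and VCAM1, made up 7.93% to 14.0% in WT_10 and 1.96% to 3.74% in Leo1_10. None of these 3 pairs of ranges overlapped. The same held for ITGA5, ITGA6 and ITGA2, the last of a collagen receptor too, with 3.56% to 3.85% in WT_10 and 5.08% to 7.79% in Leo1_10. The ranges of ITGA3, ITGA7, ITGA8, ITGA10 and ITGAV overlapped. Among the β subunits ITGB1 held 91.4% ± 0.150 in WT_10 and 90.0% ± 0.187 in Leo1_10, and less in 0.1% serum, with 78.3% ± 3.04 in WT_01 and 81.1% ± 5.48 in Leo1_01. ITGB5, a partner of ITGAV in vitronectin receptors, held 8.02% ± 0.357 in WT_10, 18.3% ± 2.29 in WT_01, 7.67% ± 0.499 in Leo1_10 and 15.0% ± 3.84 in Leo1_01. Its share was higher in every 0.1% serum library than in every 10% serum library. A share falls when another subunit rises, and no test was made on the shares.

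**Figure D1:**
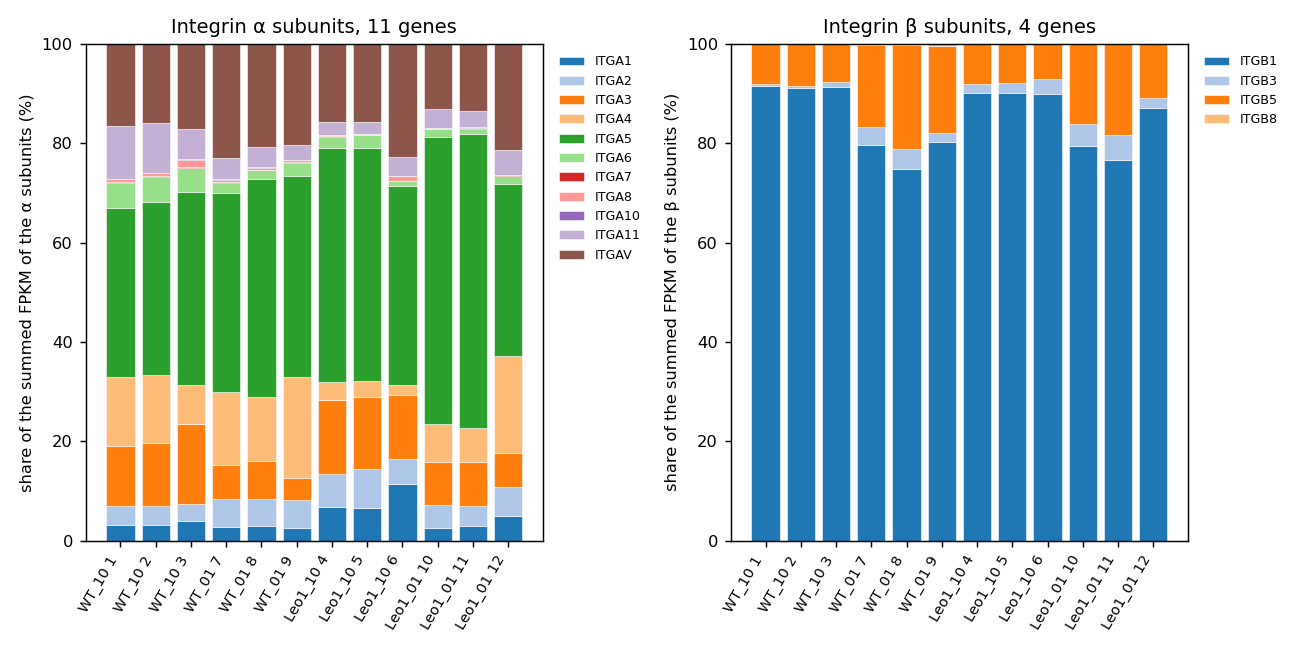
Share of the summed FPKM (%, vertical axis) that each of 11 integrin α subunits (left) and 4 β subunits (right) held in each of the 12 libraries (horizontal axis, by group and running number). ITGA5 is the largest α block in every bar and ITGB1 the largest β block, and the ITGB5 block is larger in the 0.1% serum libraries than in the 10% serum libraries.

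RefSeq promoters on GRCh38.p14, from 250 bases before to 50 bases after the start site, were at hand for 27 of the 33 genes, not for ITGA3, ITGA7, ITGB3, PARVA, PTK2 and SRC. They were searched on both strands for the CArG box bound by serum response factor and for GGAATG, the core bound by TEAD factors. The CArG box was found in 0 of the 27, against 1.29% of all 35116 promoters of the same length. GGAATG was found in 4 of the 27 (14.8%), against 14% of all promoters. The 4 matches are shown as 56 bases of the gene's strand, 5′ to 3′, with the hexamer in capitals (CATTCC where it lies on the other strand). They begin 82 bases before the start site in ITGA5 (minus strand, chr12:54419318-54419373), 91 in ITGA10 (minus strand, chr1:145910111-145910166), 182 in ITGB1 (minus strand, chr10:32958382-32958437) and 171 in VCL (plus strand, chr10:73997920-73997975).
ITGA5: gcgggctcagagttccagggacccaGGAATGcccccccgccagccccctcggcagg
ITGA10: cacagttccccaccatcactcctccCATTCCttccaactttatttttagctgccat
ITGB1: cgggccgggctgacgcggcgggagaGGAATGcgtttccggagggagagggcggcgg
VCL: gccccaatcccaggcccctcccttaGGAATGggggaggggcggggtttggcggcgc
A match of 6 letters describes the window and says nothing of binding.

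The first question was how the adhesion genes of wild-type fibroblasts respond when serum is withdrawn. Most of them fell on the ERCC scale. With all 12 libraries in one edgeR quasi-likelihood fit, 21 of the 33 genes fell in WT_01 compared to WT_10 and 0 rose at a Benjamini-Hochberg adjusted p under 0.05, against 27% and 0.831% of all tested genes. The median of the 33 log2 fold changes was −1.37 and that of all tested genes −0.97, and 24 of the 33 lay below the latter. In 24 genes every WT_01 library had a lower ERCC-scaled count than every WT_10 library and in 0 a higher one, against 53.4% and 1.16% of all tested genes. TMM on the genes, which sets the middle of all genes near 0, gave 14 lower and 2 higher calls (ITGB3 and TLN2), against 16.1% and 15.5% of all genes, and a median of −0.41 for the 33. The count of lower calls was 10 without library 7 or 9, 11 without library 1 and 12 without library 2. The share of all genes called in those fits is not given here, so the counts alone are no result about the 33 genes.

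**Figure D2:**
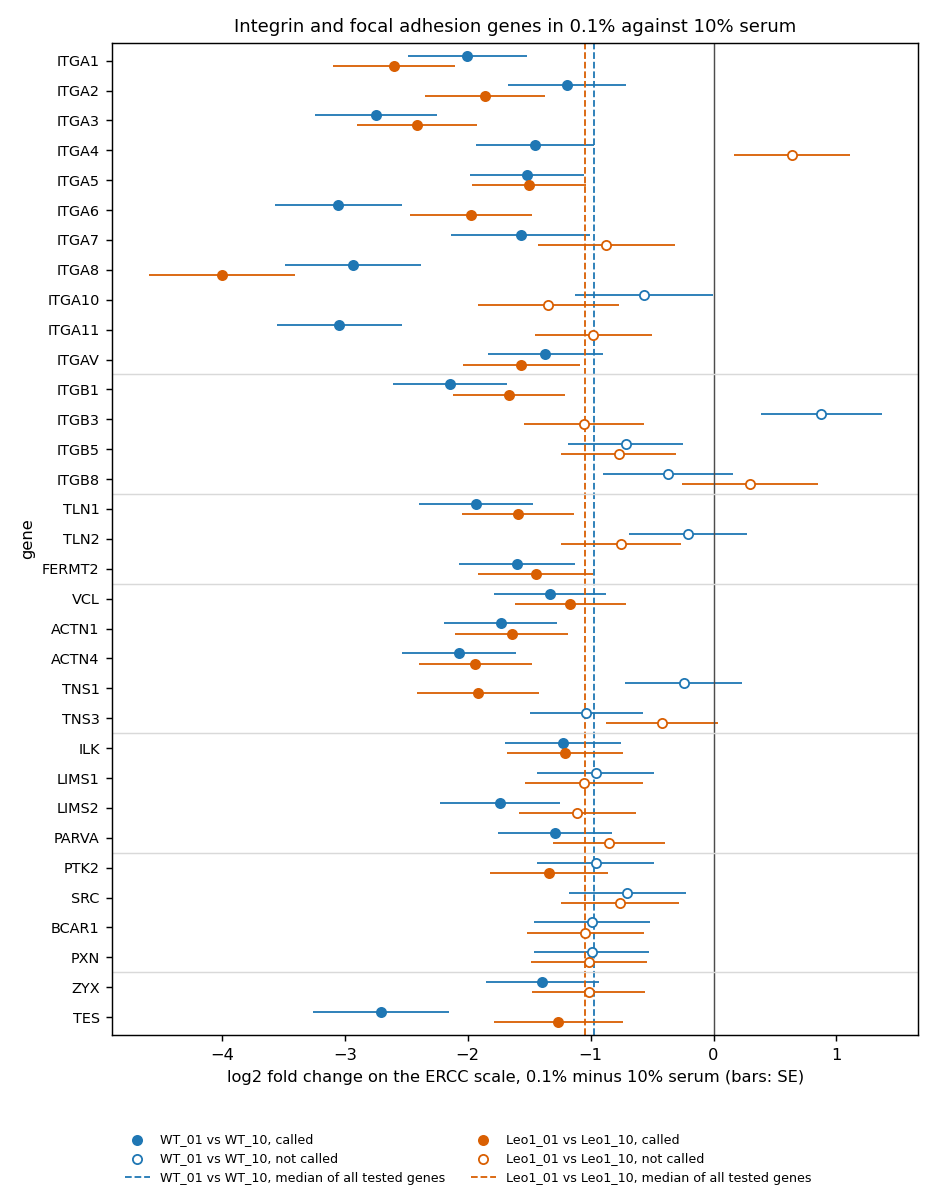
Log2 fold change of the 33 genes on the ERCC scale in 0.1% against 10% serum (horizontal axis, bars are SE), in wild-type (blue) and ΔLEO1 cells (orange), with genes grouped by role. Filled points passed the test, dashed lines mark the medians of all tested genes (−0.97 and −1.05), and most points lie left of 0.

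Among the α subunits, 10 of 11 fell in wild-type cells, and their median log2 fold change was −1.57, against 27% of all tested genes and their median of −0.97. Without library 1, 2, 7 or 9 the count was 5, the calls of ITGA2, ITGA4, ITGA5, ITGA7 and ITGAV being lost each time, and TMM on the genes called 6. ITGA6, of a laminin receptor, had ERCC-scaled counts of 8944, 7452 and 4998 in the WT_10 libraries and of 864, 901 and 812 in the WT_01 libraries. Its log2 fold change was −3.05 ± 0.52 (SE, edgeR adjusted p = 3.79e-07). All 3 serum-deprived libraries were far below all 3 in full serum.
ITGA11, of a collagen receptor typical of fibroblasts, had 31059, 24071 and 10559 in WT_10 and 3109, 3372 and 1485 in WT_01, a log2 fold change of −3.04 ± 0.51 (edgeR adjusted p = 2.29e-07). The groups did not overlap, although the WT_10 libraries differed from each other by more than 2-fold. ITGA8, whose pair with ITGB1 binds matrix proteins such as nephronectin, had 1303, 1043 and 1733 in WT_10 and 192, 202 and 140.3 in WT_01, a log2 fold change of −2.93 ± 0.56 (edgeR adjusted p = 8.30e-06). These 3 genes had the most negative values of the list, and each was called without any single library.
The other called α subunits were ITGA3 (−2.75 ± 0.50) and ITGA7 (−1.57 ± 0.57) of laminin receptors, ITGA1 (−2.004 ± 0.48) and ITGA2 (−1.19 ± 0.48) of collagen receptors, ITGA5 (−1.52 ± 0.46), ITGA4 (−1.45 ± 0.48) and ITGAV (−1.37 ± 0.47). ITGA3 and ITGA1 were called without any single library too, and ITGA2 in 3 of 12 such fits. ITGA10 had −0.56 ± 0.56 and was not called.

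Of the 4 β subunits 1, ITGB1, fell in wild-type cells, against 27% of all tested genes. The median log2 fold change of the 4 was −0.54, against −0.97 for all tested genes. ITGB1 (ENSG00000150093, GRCh38 chr10:32900319-33005792, minus strand) had 285084, 233480 and 149988 ERCC-scaled counts in WT_10 and 57884, 57289 and 36072 in WT_01. The log2 fold change was −2.14 ± 0.46 (SE, edgeR adjusted p = 1.33e-04), −1.17 once the median of all genes was subtracted. The groups did not overlap. Of the 58-base stretches of ITGB1, 8.67% also occur in AC022149.1. ITGB5 had −0.72 ± 0.47 and ITGB8 −0.37 ± 0.53. ITGB3, another partner of ITGAV, had 844, 646 and 1119.7 in WT_10 and 1903, 2315 and 588 in WT_01, and with 0.88 ± 0.49 (adjusted p = 0.126) it was the highest of the list and not called. Libraries 7 and 8 were above all WT_10 libraries and library 9 was below them. When libraries 3, 6, 9 and 12 were left out together, ITGB3 was called higher with a log2 fold change of 1.502, as it was without library 12 alone. Its counts are uncertain, because 50.7% of the 58-base stretches of its exons also occur in AC068234.1, an overlapping gene on the same strand.

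Inside the cell, TLN1 (−1.93 ± 0.46), the main talin of these cells, and FERMT2 (−1.60 ± 0.47), a kindlin, fell in wild-type cells. TLN2, the scarcer talin, had 4183, 3446 and 1734 in WT_10 and 3156, 3398 and 1555 in WT_01. Its log2 fold change was −0.21 ± 0.48 (edgeR adjusted p = 0.698) on the ERCC scale, and 0.78 and called with TMM on the genes. The groups overlapped in ERCC-scaled counts.
Among the links to actin, the crosslinkers ACTN4 (−2.07 ± 0.46) and ACTN1 (−1.73 ± 0.46) and vinculin, VCL (−1.33 ± 0.46), fell. TNS1, a tensin that binds integrin tails and actin, had 9991, 7669 and 4132 in WT_10 and 6840.4, 7959 and 3616 in WT_01, a log2 fold change of −0.24 ± 0.48 (edgeR adjusted p = 0.646). The groups overlapped. TNS3 had −1.04 ± 0.46 (adjusted p = 0.0669).
In the ILK complex LIMS2 (−1.74 ± 0.49), PARVA (−1.29 ± 0.46) and ILK (−1.22 ± 0.47) fell and LIMS1 had −0.96 ± 0.48. The count of 3 was 1 without library 1, 2 or 9 and 0 without library 7. LIMS1 shares 19.6% of its 58-base stretches with LIMS3, LIMS4 and related transcripts, so that its counts are less certain. ZYX and TES, LIM proteins of stress fibres and adhesions, both fell, with −1.39 ± 0.46 and −2.71 ± 0.56. TES had 1006, 820.5 and 466 in WT_10 and 134, 129 and 89.0 in WT_01, without overlap.
The signalling genes PXN (−0.99 ± 0.47), BCAR1 (−0.99 ± 0.48), PTK2 (−0.96 ± 0.48) and SRC (−0.70 ± 0.48) lay close to the median of all genes. BCAR1 shares 7.3% of its 58-base stretches with AC009078.3 and other transcripts. The edgeR test called 0 of these 4 with all 12 libraries, against 27% of all tested genes called lower and 0.831% called higher. It called 3 without library 11 or 12, and 3 had an unadjusted p under 0.05. The likelihood ratio test called 0 and DESeq2 called 2 (PTK2 and BCAR1). For these other counts the share of all genes is not given here, so they are no result about the 4 genes.

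In ΔLEO1 cells genes of the list also fell on the ERCC scale when serum was withdrawn. Here 17 of the 33 genes fell in Leo1_01 compared to Leo1_10 and 0 rose, against 36.4% and 0.793% of all tested genes. The medians were −1.21 for the 33 genes and −1.05 for all tested genes. In 22 genes every Leo1_01 library lay below every Leo1_10 library and in 0 above, against 50.9% and 0.846% of all tested genes. TMM on the genes gave 10 lower and 2 higher calls (ITGA4 and ITGB5), against 12.1% and 15.5%, and a median of −0.08 for the 33. The count of lower calls depended on single libraries, being 6 without library 4 or 10, 11 without library 11 and 32 without library 12. The share of all genes called in these fits is not given here, so these counts alone are no result about the 33 genes. By role, 7 of 11 α subunits, 1 of 4 β subunits, 2 of 3 talins and kindlins and 4 of 5 links to actin were called lower. So were 1 of 4 proteins of the ILK complex, 1 of 4 signalling genes, and TES but not ZYX.

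ITGA8 had 351, 296 and 1730.3 ERCC-scaled counts in Leo1_10 and 40.9, 29.5 and 82.2 in Leo1_01, the latter from 27, 32 and 32 raw counts. Library 6 was within the range of the WT_10 libraries, and libraries 4 and 5 were far below them. The log2 fold change was −4.000 ± 0.59 (SE, edgeR adjusted p = 5.26e-09) and −2.71 without library 6, still called.
ITGA1 had 42670, 30859 and 54346 in Leo1_10 and 4099.5, 2797 and 14180 in Leo1_01, a log2 fold change of −2.60 ± 0.49 (edgeR adjusted p = 1.34e-05). Library 12 was the highest of the serum-deprived libraries but below every Leo1_10 library. ITGA3 had 48921, 36686 and 32194 in Leo1_10 and 7460, 4532 and 10166 in Leo1_01, a log2 fold change of −2.41 ± 0.49 (edgeR adjusted p = 6.00e-05). For ITGB1 the values were 284166, 209210 and 178766 in Leo1_10 and 57409, 27695 and 126464 in Leo1_01, and the log2 fold change was −1.67 ± 0.46 (edgeR adjusted p = 0.00523). None of these 4 genes overlapped between the groups. The call of ITGB1 was lost without library 4 or 10, unlike those of ITGA8, ITGA1 and ITGA3.

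At the other end of the list, 3 genes were not called in ΔLEO1 cells. ITGA4 had 9982, 6483 and 3968 in Leo1_10 and 5302, 2914 and 23576 in Leo1_01, a log2 fold change of 0.64 ± 0.47 (SE, edgeR adjusted p = 0.219). Its positive sign rested on library 12, and it was −0.73 without that library and −1.003, called, without libraries 3, 6, 9 and 12. ITGB8 had 122, 103 and 107 in Leo1_10 and 69.7, 30.4 and 316 in Leo1_01, a log2 fold change of 0.30 ± 0.55 (edgeR adjusted p = 0.627). It too turned with library 12, to −1.16 without it, which was called. TNS3 had 61155, 42050 and 35230 in Leo1_10 and 29766, 14790 and 58882 in Leo1_01, a log2 fold change of −0.42 ± 0.46 (edgeR adjusted p = 0.399). Without library 12 it was −1.05 and called lower. In each of the 3 genes library 12 was the highest of its group and the groups overlapped on the ERCC scale. Library 12 was also the highest of its group in CPM.
Among the other called genes were ITGA6 (−1.97 ± 0.50), ACTN4 (−1.94 ± 0.46), TNS1 (−1.92 ± 0.50), ITGA2 (−1.86 ± 0.49), ACTN1 (−1.64 ± 0.46) and TLN1 (−1.59 ± 0.46). PTK2, the gene of focal adhesion kinase, was called with −1.34 ± 0.48, in 7 of 12 fits that left out 1 library. TES, with −1.26 ± 0.53 (edgeR adjusted p = 0.0470), was called in 3 of 12.

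Whether the serum response differed between the genotypes was tested as an interaction. The quasi-likelihood test of edgeR called 0 lower and 0 higher of the 33 genes, against 0.0604% and 0.113% of all tested genes. At an unadjusted p under 0.05 there were 4 of the 33, against 2.12% of all tested genes, and with all 12 libraries the likelihood ratio test and DESeq2 also called 0. The 4 genes were ITGA4 (interaction on the log2 scale 2.09 ± 0.67, adjusted p = 0.406), ITGA11 (2.07 ± 0.67, adjusted p = 0.450), ITGB3 (−1.93 ± 0.69, adjusted p = 0.820) and TNS1 (−1.67 ± 0.68, adjusted p = 1). TMM on the genes called 0 lower and 2 higher, ITGA11 (1.98) and TES (1.42), against 0.453% and 1.55% of all genes. On the ERCC scale the result depended on the libraries used. Without library 11, ITGA4 (2.54, adjusted p = 0.00436) and ITGA11 (2.44, adjusted p = 0.00940) were called, and without libraries 3, 6, 9 and 12 ITGB3 was called (−2.54, adjusted p = 0.00517). Each of the 11 other fits that left out 1 library called 0 lower and 0 higher.

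The next comparison asked which adhesion genes differ between ΔLEO1 and wild-type fibroblasts in 10% serum. ITGB3 and ITGA1 rose and TNS1, ITGB8 and ITGA4 fell in Leo1_10 compared to WT_10. These are 2 higher and 3 lower of 33 genes, against 3.81% and 4.2% of all tested genes. The medians of the list and of all tested genes were 0.35 and 0.35. In 11 genes every Leo1_10 library lay above every WT_10 library and in 2 below, against 23.7% and 6.94% of all genes. TMM on the genes called 3 higher (ITGA1, ITGA2, ITGB3) and 9 lower (ITGA4, ITGA6, ITGA11, ITGB5, ITGB8, TLN2, TNS1, TNS3, PARVA), against 17.9% and 21.4%.

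**Figure D3:**
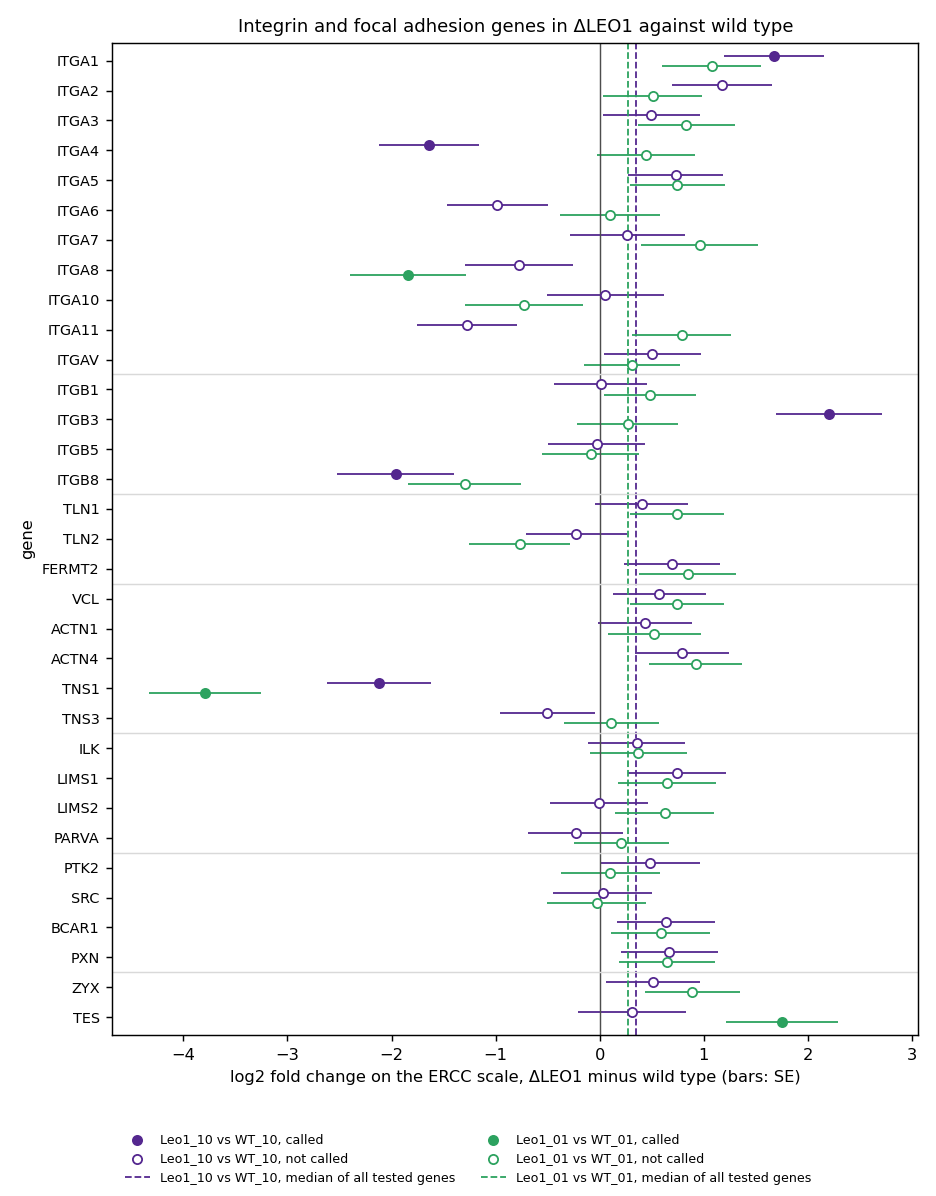
Log2 fold change of the 33 genes on the ERCC scale in ΔLEO1 against wild-type cells (horizontal axis, bars are SE), in 10% serum (purple) and in 0.1% serum (green), with genes grouped by role. Filled points passed the test, and dashed lines mark the medians of all tested genes (0.35 and 0.27). TNS1 lies farthest to the left in both comparisons (−2.12 and −3.79).

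ITGB3 (ENSG00000259207, GRCh38 chr17:47253846-47311816, plus strand) had 844, 646 and 1119.7 ERCC-scaled counts in WT_10 and 4278, 3317 and 4417 in Leo1_10. The difference was 4.60-fold, a log2 fold change of 2.20 ± 0.51 (SE, edgeR adjusted p = 3.81e-04). The groups did not overlap and the call held without any single library, but the stretches shared with AC068234.1 apply here too. ITGA1 (ENSG00000213949, GRCh38 chr5:52787896-52959210, plus strand), which binds collagen together with ITGB1, had 15920, 12828 and 11401 in WT_10 and 42670, 30859 and 54346 in Leo1_10. It was 3.19-fold higher in Leo1_10, a log2 fold change of 1.67 ± 0.48 (edgeR adjusted p = 0.00827). The groups did not overlap, and the call was lost without library 2, 3 or 6. ITGA1 also shares 5.48% of its 58-base stretches with PELO, which lies on the same strand within its locus, and with other transcripts.
ITGA2 and ITGA11, also of collagen receptors, had 1.18 ± 0.48 (edgeR adjusted p = 0.134) and −1.28 ± 0.48 (edgeR adjusted p = 0.0838). Both were called with TMM on the genes, in opposite directions. On the ERCC scale ITGA11 was called lower without library 3, 11 or 12 and ITGA2 higher without library 11 or 12.

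TNS1 (ENSG00000079308, GRCh38 chr2:217799588-218033982, minus strand) had 9991, 7669 and 4132 in WT_10 and 2483, 1579 and 947 in Leo1_10. Its log2 fold change was −2.12 ± 0.50 (SE, edgeR adjusted p = 5.28e-04), the groups did not overlap, and the call held without any single library. ITGB8 (ENSG00000105855, GRCh38 chr7:20330702-20415754, plus strand), whose pair with ITGAV is known for activating latent TGF-β, had 584, 547 and 165 in WT_10 and 122, 103 and 107 in Leo1_10, from raw counts of 93 to 204 and 30 to 45. Its log2 fold change was −1.96 ± 0.56 (edgeR adjusted p = 0.00822). ITGA4 (ENSG00000115232, GRCh38 chr2:181457202-181536187, plus strand) had 29666, 24186 and 9941 in WT_10 and 9982, 6483 and 3968 in Leo1_10, a log2 fold change of −1.64 ± 0.48 (edgeR adjusted p = 0.0109). Library 3 was the lowest WT_10 library in all 3 genes, and for ITGA4 it was just below the highest Leo1_10 library, so that these groups overlapped. The calls of ITGB8 and ITGA4 were each lost without library 1, 2, 5 or 6, and DESeq2 called only TNS1 lower.
ITGA8 had −0.78 ± 0.52 (edgeR adjusted p = 0.515), and without library 6 it was called lower.
Several genes of the plaque had small values in 10% serum. ITGB1 had 0.01 ± 0.44, TLN1 0.40 ± 0.45, VCL 0.57 ± 0.45, ILK 0.35 ± 0.47, PTK2 0.49 ± 0.47 and ZYX 0.51 ± 0.45. None of these 6 was called, and the smallest difference called among the 33 genes was −1.64 on the log2 scale. They do not stand for the whole plaque. ACTN4 had mean ERCC-scaled counts of 141963 ± 14679 (SD, n = 3) in WT_10 and 245339 ± 42739 in Leo1_10. It was not called, while TMM on the genes called TLN2, TNS3 and PARVA lower.

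In 0.1% serum, TNS1 and ITGA8 fell and TES rose in Leo1_01 compared to WT_01. These are 2 lower and 1 higher of 33 genes, against 3.41% and 3.49% of all tested genes. The medians were 0.51 for the 33 genes and 0.27 for all tested genes. In 2 genes every Leo1_01 library lay below every WT_01 library and in 1 above, against 4.83% and 4.64% of all genes. TMM on the genes called 3 lower (TNS1, ITGB8, TLN2) and 9 higher (ITGA3, ITGA5, TLN1, VCL, ACTN4, LIMS1, PXN, ZYX, TES), against 17.3% and 15.1%. Without library 12 there were 4 lower and 0 higher calls on the ERCC scale, and without library 11 2 and 5. Without library 7 or 8 there were 1 and 0. Without libraries 3, 6, 9 and 12 the medians turned negative, to −0.19 for the 33 genes and −0.42 for all tested genes.

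TNS1 had 6840.4, 7959 and 3616 ERCC-scaled counts in WT_01 and 672, 289 and 365 in Leo1_01. It was 13.9-fold lower in ΔLEO1 cells, a log2 fold change of −3.79 ± 0.54 (SE, edgeR adjusted p = 1.52e-10). The lowest wild-type library was more than 5 times the highest ΔLEO1 library, and the call held without any single library and under every alternative tried. ITGA8 (ENSG00000077943, GRCh38 chr10:15513949-15720125, minus strand) had 192, 202 and 140.3 in WT_01 and 40.9, 29.5 and 82.2 in Leo1_01, a log2 fold change of −1.84 ± 0.56 (edgeR adjusted p = 0.0164). The groups did not overlap, but the call was lost without library 7, 8 or 10 and with TMM on the genes (adjusted p = 0.0568). TES (ENSG00000135269, GRCh38 chr7:116210493-116258783, plus strand), which binds zyxin, had 134, 129 and 89.0 in WT_01 and 245, 199 and 745 in Leo1_01, a log2 fold change of 1.75 ± 0.54 (edgeR adjusted p = 0.0200). Every Leo1_01 library was above every WT_01 library, and library 12 was at least 3-fold above the others of its group on the ERCC scale. In CPM library 12 was less far above them, with 8.215 against 4.66 and 6.64 in libraries 10 and 11. The call of TES was lost without library 7, 8, 9 or 12, and its log2 fold change was 0.75 (adjusted p = 0.249) without libraries 3, 6, 9 and 12.
Of the genes called in 10% serum, ITGB3 (0.27 ± 0.49), ITGA1 (1.07 ± 0.47), ITGB8 (−1.30 ± 0.54) and ITGA4 (0.45 ± 0.47) were not called in 0.1% serum with all 12 libraries. For ITGB8 and ITGA1 this rested on single libraries. ITGB8 was called lower without library 12 (−2.76, edgeR adjusted p = 6.09e-06) and without libraries 3, 6, 9 and 12 (−2.49, edgeR adjusted p = 9.30e-07), and ITGA1 was called higher without library 11 (1.45, edgeR adjusted p = 0.00844). With all 12 libraries TNS1 was the one gene of the list called in both serum conditions on the ERCC scale. ITGB8 was also called in both without library 12, ITGA1 without library 11, and ITGA8 without library 6. Without libraries 3, 6, 9 and 12, ITGA8 had −1.86 in 10% and −2.50 in 0.1% serum, both called.

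**Figure D4:**
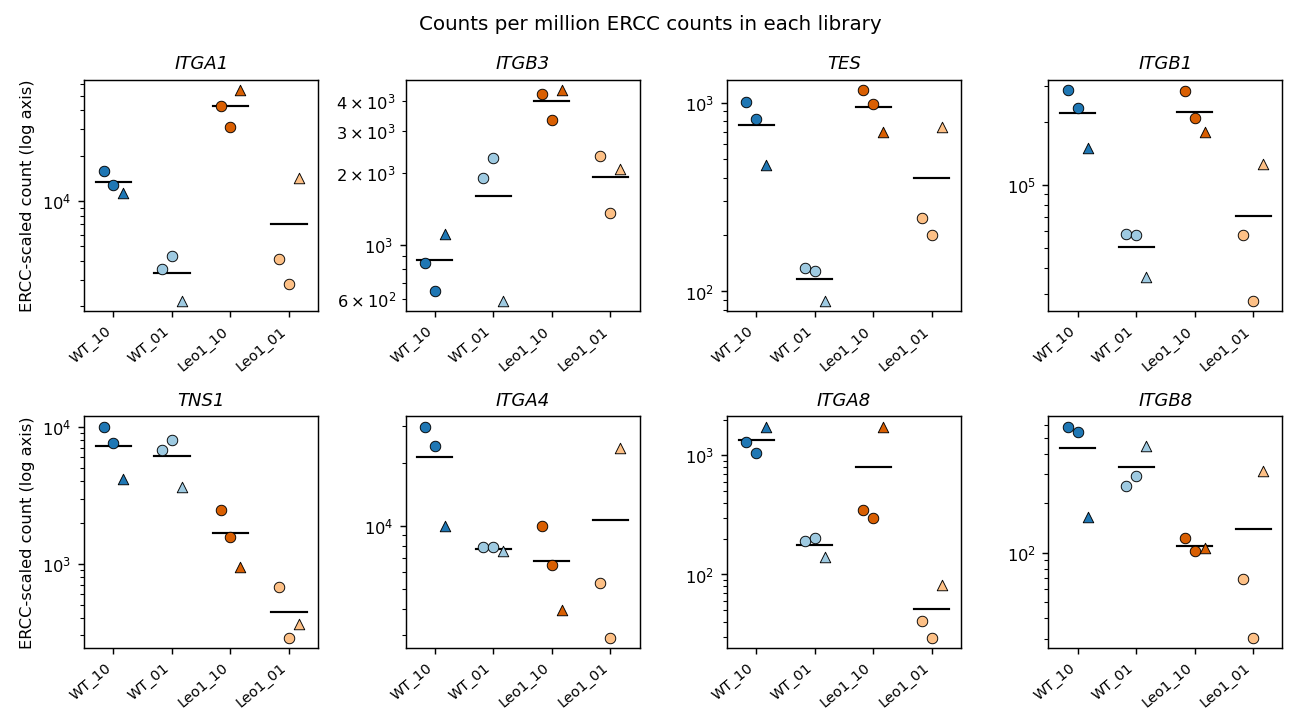
ERCC-scaled counts (vertical axes, logarithmic) in each library of the 4 groups (horizontal axes) for the 7 genes called between genotypes and for ITGB1. Horizontal bars are means of 3 libraries, and triangles mark the highest-numbered library of each group. TNS1 is lower in all ΔLEO1 than in all wild-type libraries, and library 12 is the highest Leo1_01 library for ITGA1, ITGA4, ITGA8, ITGB8, TES and ITGB1.

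Genes of the same pathway outside the 33 were described from 4 further lists. Of 11 other integrin subunits ITGB4 and ITGAE passed the filter. ITGB4, the β subunit of hemidesmosomes, fell in Leo1_10 compared to WT_10 (−3.94 ± 0.62 on the log2 scale) and in Leo1_01 compared to WT_01 (−1.83 ± 0.58), the latter call being lost without library 2, 5, 7, 8, 10 or 11. Its raw counts were few, 153 to 350 in WT_10, 12 to 24 in Leo1_10, 81 to 86 in WT_01 and 17 to 28 in Leo1_01.
Of 59 other plaque proteins 50 passed. With serum withdrawal 27 fell and 1 rose in wild-type cells (median −1.26), and 26 fell in ΔLEO1 cells (median −1.14), against 27%, 0.831% and 36.4% of all tested genes and medians of −0.97 and −1.05. The TMM fit called 20 lower and 5 higher in wild-type cells, against 16.1% and 15.5% of all genes. In ΔLEO1 cells it called 7 lower and 9 higher, against 12.1% and 15.5%. With each library left out in turn, the lower calls ran from 5 to 40 (lowest without library 7 or 9, highest without 12) and from 2 to 41 (lowest without library 10, highest without 12). For such fits, here and for the lists below, the share of all genes called is not given. The largest falls were those of FLNA, a filamin that crosslinks actin (−2.17 ± 0.45 in wild-type cells), and LPXN, a relative of paxillin (−2.46 ± 0.51 in ΔLEO1 cells). Between genotypes 4 fell and 1 rose in 10% serum, against 4.2% and 3.81% of all tested genes. In 0.1% serum 3 fell, against 3.41% of all tested genes. ARHGEF6 had −2.85 ± 0.55 in 10% and −1.74 ± 0.53 in 0.1% serum, and EVL, a protein of actin filament ends, −2.78 ± 0.53 and −1.87 ± 0.51. In 0.1% serum the call of ARHGEF6 was lost without library 7, 8 or 10 and that of EVL without library 8. FERMT1, the kindlin of epithelia, had raw counts of 14 to 43 in WT_10 and 23 to 38 in WT_01, and of 0 to 1 in Leo1_10 and 1 in each Leo1_01 library. NEDD9, a relative of BCAR1 named after its values were seen, was the gene that rose both in wild-type cells with serum withdrawal (1.38 ± 0.49) and in Leo1_10 compared to WT_10 (1.55 ± 0.49). Both comparisons share the WT_10 libraries, and these calls were made in 7 and 8 of 12 fits that left out 1 library.
Of the 10 membrane partners of integrins 5 fell with serum withdrawal in wild-type cells and 4 in ΔLEO1 cells, against 27% and 36.4% of all tested genes, with ADAM9 first in both (−2.10 ± 0.48 and −1.68 ± 0.47). The TMM fit called 2 lower and 1 higher in wild-type cells, against 16.1% and 15.5% of all genes. In ΔLEO1 cells it called 1 lower and 4 higher, against 12.1% and 15.5%. The lower calls ran from 2 to 6 and from 0 to 8 with each library left out, where the ΔLEO1 count was lowest without library 4 or 10 and highest without library 12. Between genotypes edgeR called 0 of them in either serum condition. At an unadjusted p under 0.05 there were 1 in 10% and 0 in 0.1% serum, against 15.6% and 12.9% of all genes. TMM on the genes called 4 lower and 1 higher in 10% serum, against 21.4% and 17.9% of all genes. In 0.1% serum it called 1 lower and 3 higher, against 17.3% and 15.1%.
Of 26 integrin ligands 22 passed. With serum withdrawal 12 fell in wild-type and 11 in ΔLEO1 cells, with medians of −1.26 and −1.06, against 27% and 36.4% of all tested genes and medians of −0.97 and −1.05. The TMM fit called 8 lower and 4 higher in wild-type cells, against 16.1% and 15.5% of all genes. In ΔLEO1 cells it called 8 lower and 7 higher, against 12.1% and 15.5%. The lower calls ran from 6 to 15 (lowest without library 9) and from 6 to 18 (lowest without library 10, highest without 12) with each library left out. Between genotypes POSTN, a matrix protein bound by ITGAV integrins, rose in 10% serum (5.29 ± 0.54) and in 0.1% serum (3.11 ± 0.49), as did VTN, the gene of vitronectin (2.15 ± 0.56 and 3.26 ± 0.66). VTN had few raw counts, 32 to 94 in WT_10, 131 to 322 in Leo1_10, 2 to 9 in WT_01 and 29 to 54 in Leo1_01. Its call in 10% serum was lost without library 2. LAMA5, a laminin chain, fell in 10% serum (−1.45 ± 0.49), a call made in 5 of 12 fits that left out 1 library.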

How the data were processed

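Poly(A) RNA of 12 libraries was sequenced from a stranded mRNA kit with ERCC transcripts added. The authors aligned the reads with STAR (2.7.10a in the submitters' processing notes) to GRCh38 with the ERCC sequences, counted them in annotated exons with featureCounts 1.5.1, and deposited raw counts per gene and per ERCC transcript, with replicates not pooled. The sources used here give neither the release of the annotation nor whether strand was used in counting, so reads of a gene and of an overlapping or antisense gene cannot be told apart.

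The counts were tested in R 4.3.3 with edgeR 4.0.16 (quasi-likelihood test, two-sided). The study names edgeR but no test within it. Genes with more than 1 CPM in at least 3 libraries were kept, and the library size was the ERCC total times the TMM factor of the ERCC transcripts. All 12 libraries and 4 groups entered one fit, with 4 comparisons of groups and the genotype by serum interaction, and p-values were adjusted over all tested genes by Benjamini-Hochberg. The threshold was an adjusted p of 0.05. Standard errors are the log2 fold change divided by the square root of F. FPKM used the union of GENCODE exons. The procedure was tested on simulated counts.

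Alternatives were the likelihood ratio test, DESeq2 1.42.0 with ERCC size factors, TMM on the genes, unweighted ERCC totals as library sizes, no filter, each library left out in turn, and the 2 lowest-numbered libraries of each group only. The last of these combined with TMM on the genes was added after the data were seen. The 33 genes, the other lists and the alternatives were chosen with earlier results of these data known, so no p is independent of that choice. Values per library are given for genes called between genotypes, for the 3 lowest and 3 highest fold changes of each serum comparison and for ITGB1, and of the other lists at most the 3 largest called genes per comparison are named. Promoter windows came from RefSeq. Protein sequences were not used here.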

Additional observations from a re-analysis of the deposited data

How the results depend on the processing

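Of 3135 alternative fold changes of the 33 genes in the 5 comparisons, 2796 kept their sign and their side of the threshold or had another sign with no call on either side (177 of them), and 28 reversed with a call. No paired analysis was possible because the 12 libraries carry running numbers of which none is shared between groups. The number called lower ranged, with each library left out in turn, from 10 to 26 (WT_01 against WT_10), 6 to 32 (Leo1_01 against Leo1_10), 1 to 4 (Leo1_10 against WT_10), 1 to 4 (Leo1_01 against WT_01) and 0 to 0 (interaction), and the number called higher from 0 to 1, 0 to 0, 1 to 3, 0 to 5 and 0 to 2. In the same order, TMM on the genes gave 14, 10, 9, 3 and 0 lower and 2, 2, 3, 9 and 2 higher. The 2 lowest-numbered libraries of each group alone gave 25, 33, 5, 4 and 1 lower and 1, 0, 3, 0 and 0 higher. The medians of the 33 genes there were −1.33, −1.67, 0.23, −0.19 and −0.44. Those of all tested genes were −1.03, −1.72, 0.26, −0.42 and −0.67. For fits with libraries left out the share of all genes called is not given here, so these counts alone are no result about the 33 genes. With both changes together, an alternative chosen after seeing the data, the counts were 18, 13, 13, 11 and 6 lower and 7, 11, 13, 17 and 13 higher. These pairs of libraries are nearly alike, with a chi-square per gene of 3.04 to 12.1 against 66.2 to 144 for pairs with the library left out, and small differences pass the test there. DESeq2 gave 1 in place of 3 lower in Leo1_10 against WT_10. The likelihood ratio test, unweighted ERCC totals and no filter kept each count within 1.5 times.

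TMM on the genes reversed TLN2 in wild-type serum withdrawal (0.78) and ITGB5 in that of ΔLEO1 cells (0.39). The 2 lowest-numbered libraries alone reversed ITGA4 (−1.003) and ITGB8 (−1.20) in ΔLEO1 serum withdrawal, and ITGB8 was also reversed without library 12, its values with each library left out in turn running from −1.16 to 0.79. Both changes together reversed 23 values. In WT_01 against WT_10 these were ITGA10 (0.88), ITGB5 (0.29), TLN2 (0.82), TNS1 (0.78), PTK2 (0.20) and SRC (0.52). In Leo1_01 against Leo1_10 they were ITGB3 (0.68), ITGB5 (0.46), VCL (0.24), TNS3 (0.48), ILK (0.22), PARVA (0.28), SRC (0.74), BCAR1 (0.29), PXN (0.23) and ZYX (0.25). In Leo1_10 against WT_10 they were ITGB1 (−0.33) and SRC (−0.23), and in Leo1_01 against WT_01 ITGA4 (−0.54), ITGAV (−0.35), TNS3 (−0.45), PARVA (−0.19) and PTK2 (−0.16). TMM centres the middle of all genes near 0, so that small values on either side of it change sign by construction. Among the 33 genes the smallest differences called on the ERCC scale were −1.16 (VCL in ΔLEO1 serum withdrawal) and −1.64 (ITGA4 between genotypes), and 3 libraries a group limit which smaller ones can be called.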
